A study of Mus musculus with 6 samples.

Results

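The glucocorticoid receptor gene Nr3c1 and 9 genes known as its targets (Fkbp5, Tsc22d3, Sgk1, Zbtb16, Klf9, Mt1, Mt2, Ddit4 and Errfi1) were followed in whole adrenal glands of mice without a working circadian clock. All probe sets that the platform annotation assigns to exactly 1 of these 10 genes were taken, which gave 30 of the 34848 probe sets that name 1 gene. The glands came from 3-month-old male Per2Brdm1/Cry1-/- mice of mixed C57BL6x129Sv background, held for 2 weeks under alternating light and darkness before constant darkness began. They were dissected 54 h (3 arrays) or 46 h (3 arrays) after lights off, and every animal carried both mutations. Each array gives the intensity of 1 labelled RNA sample, in units of a linear scale that ran to 17879. The labels mark 2 arrays of each time point B and C, and the unlettered array is called replicate 1 here. They do not say how many animals an array stands for, so part of the spread behind the p-values may be technical. Wild-type glands were not analysed here, and the 3 arrays at each time point limit the precision.

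Corticosterone, made in the adrenal cortex itself, binds the glucocorticoid receptor, which leaves its chaperone complex, enters the nucleus and regulates genes through DNA elements built from paired, inverted hexamers. Some of the induced genes dampen the response: Fkbp5 encodes a co-chaperone that lowers the affinity of the receptor for hormone, and Tsc22d3 encodes GILZ, which mediates part of the anti-inflammatory effect. Metallothionein genes answer to glucocorticoid and also to metal ions, which act through the factor MTF1 and its metal response elements. In a whole gland, fewer cells of a type and less RNA per cell cannot be told apart.

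Promoter windows from RefSeq (GRCm38.p6), running from 250 bases before an annotated start to 50 after it, were used for 8 of the 10 genes, 16 windows in all. The palindromic glucocorticoid response element, searched as AGAACA and its reverse complement TGTTCT with 3 bases between them, the same on either strand, was present in 1 of them, an Sgk1 window at chr10:21993640-21993939 (plus strand), and in 3 of all 32851 mouse windows (0.00913%). It is shown because it is the only such match among the 16 windows. The element, in capitals, begins 189 bases before that start. Sgk1 has 6 annotated starts, and which of them the probe set reads is not given.
Sgk1: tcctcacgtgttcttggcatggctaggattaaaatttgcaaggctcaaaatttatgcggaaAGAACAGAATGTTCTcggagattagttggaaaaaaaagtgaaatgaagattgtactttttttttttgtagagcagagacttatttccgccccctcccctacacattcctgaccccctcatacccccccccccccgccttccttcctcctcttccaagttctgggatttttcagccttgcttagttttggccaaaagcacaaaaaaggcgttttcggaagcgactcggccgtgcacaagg

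The windows of Mt1 at chr8:94178839-94179138 and Mt2 at chr8:94172368-94172667 (both plus strand) are shown because these neighbouring genes are usually induced together. A further reason is that Mt1 had the smallest p of the receptor gene and its 9 targets. The starts that these windows use lie 6471 bases apart. RefSeq places the beginning of the Mt1 gene at 94178883, so most of the Mt1 window lies inside the annotated gene. Capitals mark matches to the metal response element core, searched as TGCACNC and TGCGCNC on both strands. Mt1 had 3 matches and Mt2 had 4, none overlapping another. At least 1 match occurred in 25.7% of all windows and at least 3 in 1.97%. Neither window held the palindromic glucocorticoid element. A match describes the letters of the window and is not a binding site shown by these data.
Mt1: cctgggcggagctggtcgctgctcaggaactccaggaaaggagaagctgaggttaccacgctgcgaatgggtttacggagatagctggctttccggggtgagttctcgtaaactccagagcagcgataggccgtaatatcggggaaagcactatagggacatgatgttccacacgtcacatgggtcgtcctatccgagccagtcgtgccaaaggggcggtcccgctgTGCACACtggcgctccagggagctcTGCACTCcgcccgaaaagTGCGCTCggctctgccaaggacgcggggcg
Mt2: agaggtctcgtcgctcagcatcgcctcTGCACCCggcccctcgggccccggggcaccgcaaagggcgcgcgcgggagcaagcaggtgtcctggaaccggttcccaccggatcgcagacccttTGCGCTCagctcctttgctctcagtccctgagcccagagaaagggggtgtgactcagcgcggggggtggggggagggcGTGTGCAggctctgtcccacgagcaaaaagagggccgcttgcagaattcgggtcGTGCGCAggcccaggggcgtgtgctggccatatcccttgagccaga

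Of the 30 probe sets, 24 were above the filter on low values (a mean log2 signal over the 6 arrays above the 40th percentile of all probe sets), and each of the 10 genes kept at least 1. None of the 24 passed limma for a change between 54 h and 46 h (0 at a Benjamini-Hochberg adjusted p of 0.05), where 0.115% of all 26961 tested probe sets passed. With an unadjusted threshold of 0.05, 3 of the 24 passed limma, 1 higher (Ddit4) and 2 lower (Mt1 and 1 probe set of Klf9), or 12.5%, near the 10.1% of all probe sets. In 6 of the 24 the 54 h and 46 h arrays were fully separated, against 15.5% of all probe sets; 2 were higher and 4 lower at 54 h, against 6.48% and 9.05%. The change was below 0 in 18 of the 24, and in 55.6% of all probe sets, but probe sets of 1 gene are not independent. The median log2 change over the 24 was -0.10, against -0.02 over all. Both summaries moved with single arrays: 13 of the 24 were below 0, with a median of -0.06, without 54h replicate 1, and 13, with a median of -0.04, without 46h replicate C. Without 46h replicate 1 the median was -0.03 with 17 below 0, and without 46h replicate B it was -0.17 with 20 below 0. The 95% intervals of all 24 excluded a 2-fold change, as did those of 26534 of all 26961 probe sets tested. That of 21 excluded a 1.5-fold change, as did the intervals of 87.2% of all probe sets. The exceptions were 1 probe set each of Nr3c1, Tsc22d3 and Klf9. With array weights 5 of the 24 passed, where 12.9% of all probe sets did.

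**Figure D1:**
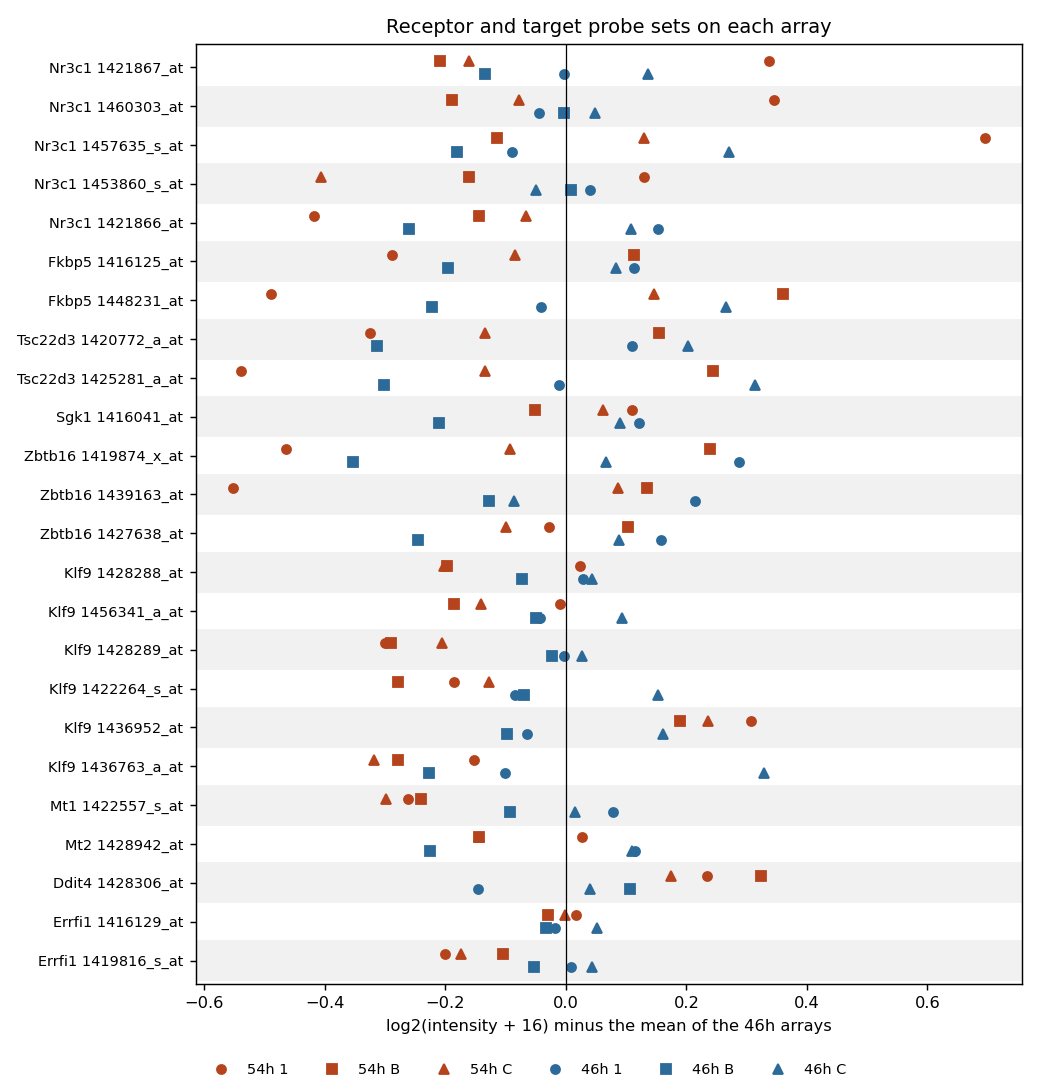
Position of each array for the 24 probe sets above the filter, as log2(intensity + 16) minus the mean of the 46h arrays of that probe set; orange marks are 54h arrays, blue marks 46h arrays, and the shape gives the replicate. The 54h marks of Fkbp5, Tsc22d3 and most Nr3c1 and Zbtb16 probe sets spread more widely than those of Klf9, Mt1, Mt2, Ddit4 and Errfi1.

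The receptor was read by 6 probe sets, 5 of them above the filter. Values are given in the order of replicates 1, B and C throughout. Probe set 1460303_at gave 914, 626 and 677 units at 54 h, against 694, 714 and 741 units at 46 h. Probe set 1421867_at read 925, 628 and 650 units at 54 h, against 728, 663 and 803 units at 46 h. In both, replicate 1 stood above every other array while replicates B and C of 54 h stood below all 46 h arrays. The means therefore barely differed, with log2 changes of 0.03 ± 0.14 and -0.01 ± 0.15 (SE). Probe set 1457635_s_at read 659, 369 and 440 units at 54 h, against 376, 351 and 486 units at 46 h, a log2 change of 0.24 ± 0.20 (SE) with a 95% interval of -0.22 to 0.70. Probe set 1453860_s_at, with a change of -0.15, again had its highest value on 54h replicate 1, at 229 units. That change was -0.28 without this array and -0.02 without 54h replicate C. The dim probe set 1421866_at ran the other way, with its lowest value, 117 units, on that array and a change of -0.21, which ran from -0.34 to -0.11 with single arrays left out. None of the 5 passed limma (adjusted p from 0.703 to 0.989), and they did not share a direction. Leaving out 54h replicate 1 gave 1460303_at a log2 change of -0.13 and 1457635_s_at 0.01. The probe set under the filter, 1431378_at, stayed between 31.7 and 48.9 units.

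Fkbp5, the co-chaperone of the feedback loop, was read by 3 probe sets, and its brightest, 1416125_at, gave 2825, 3738 and 3255 units at 54 h, against 3738, 3014 and 3659 units at 46 h. The second, 1448231_at, gave 611, 1115 and 959 units at 54 h, against 840, 739 and 1042 units at 46 h. The probe sets ranked the arrays alike at 54 h, with replicate B highest and replicate 1 lowest. Their log2 changes were -0.09 ± 0.11 and 0.01 ± 0.21 (SE), smaller than the spread within either time point. The remaining probe set, 1447736_at, was listed below 19 units throughout.

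Tsc22d3, also called Gilz, was read by 4 probe sets. Probe set 1420772_a_at gave 878, 1230 and 1004 units at 54 h, against 1192, 885 and 1272 units at 46 h. Probe set 1425281_a_at gave 388, 679 and 519 units at 54 h, against 566, 460 and 713 units at 46 h. In both, the time points overlapped and 54h replicate 1 was the lowest of the 6 arrays. Their log2 changes were -0.10 ± 0.16 and -0.14 ± 0.21 (SE). The interval of the second ran from -0.61 to 0.33. The other 2 probe sets were under the filter, at 86.1 to 129 units.

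Zbtb16, which encodes the zinc-finger repressor PLZF, had 3 probe sets. The brightest, 1419874_x_at, read 1379, 2256 and 1789 units at 54 h, against 2334, 1491 and 2000 units at 46 h. Probe set 1439163_at read 586, 952 and 920 units at 54 h, against 1007, 792 and 815 units at 46 h. In each, 54h replicate 1 was the lowest and 46h replicate 1 the highest of the 6 arrays. The log2 changes were -0.11 ± 0.19 and -0.11 ± 0.18 (SE), and -0.01 ± 0.14 for 1427638_at. The suffix x marks probe sets with probes that may also bind other transcripts, so the first of these is less specific to Zbtb16.

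The arrays at 54 h thus sorted the receptor and these 3 targets in opposite ways, a pattern picked out after the values were seen. On 54h replicate 1, 4 of 5 Nr3c1 probe sets had their highest value of all 6 arrays, while both probe sets of Fkbp5, both of Tsc22d3 and 2 of 3 of Zbtb16 had their lowest. On the log2 scale, the distance from the 46 h mean on that array was 0.35 for Nr3c1 1460303_at, whereas it was -0.49 for Fkbp5 1448231_at, -0.54 for Tsc22d3 1425281_a_at and -0.55 for Zbtb16 1439163_at. Over the 24 probe sets 54h replicate 1 was the lowest array in 9 and the highest in 5, against 22.0% and 17.2% of all probe sets. Among the 54 h arrays alone it was the highest in 11 of the 24 and the lowest in 9, against 33.5% and 37.1% of all probe sets. The other targets were not alike. Of the 54 h arrays it was the highest for Sgk1, Mt2 and Klf9 1428288_at, and the lowest for Klf9 1428289_at and Errfi1 1419816_s_at. Without this array the log2 changes of both Fkbp5 probe sets, both of Tsc22d3 and all 3 of Zbtb16 were above 0, and none passed. The largest was 0.25, for Fkbp5 1448231_at, and the next 0.11, for Zbtb16 1439163_at. Among the 46 h arrays replicate B was the lowest in 20 of the 24, where it was the lowest in 44.2% of all probe sets tested.

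**Figure D2:**
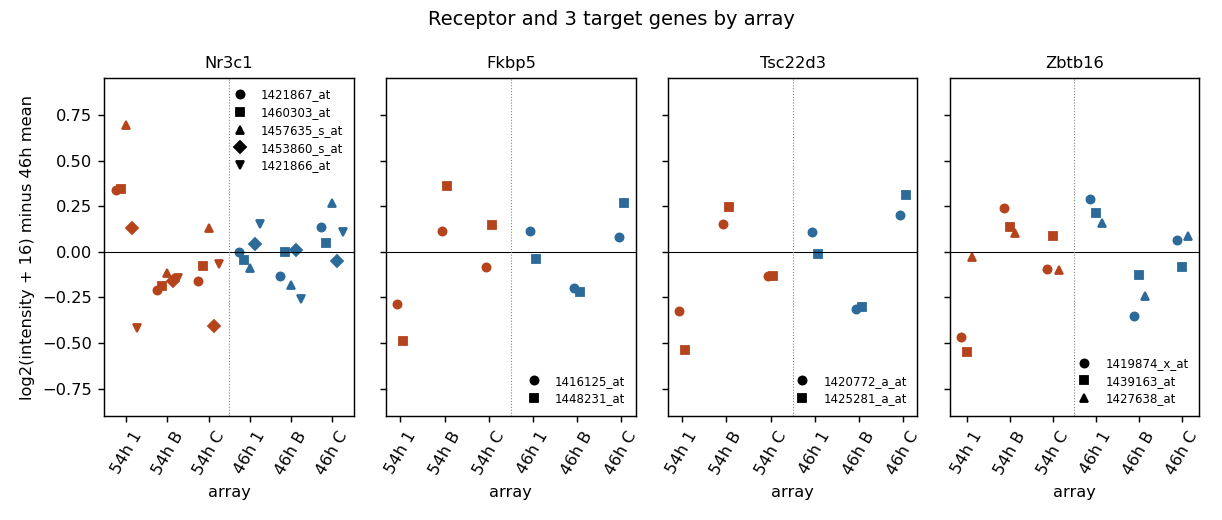
Log2(intensity + 16) minus the 46h mean for Nr3c1, Fkbp5, Tsc22d3 and Zbtb16 on each array, with a marker shape per probe set; 54h arrays are left of the dotted line, 46h arrays right of it. On 54h replicate 1 most Nr3c1 marks lie above 0 and the marks of the 3 targets lie below it.

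Some tissue measures were also extreme on 54h replicate 1, and their part in the pattern was not tested. The summed intensity of 10 cortex markers was lowest there, at 126768 units, with 133072 to 139874 on the other 54 h arrays and 133523 to 141313 at 46 h. That of 11 medulla markers was also lowest there, at 70464 units, close to the range of 70749 to 76730 on the other arrays. The sum of 8 adipose markers was highest there, at 37421 units, with 27649.7 to 34180 over the other 5 arrays. No marker of these lists was at 0. The 3' minus 5' difference of the array's actin control, a sign of RNA quality, was 0.65 on the log2 scale on that array, against 0.55 to 0.63 on the others, and that of the Gapdh control was 0.0037, against -0.13 to 0.069.

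Sgk1, a kinase that raises epithelial sodium transport, had 1 probe set. It read 3979, 3558 and 3850 units at 54 h, against 4013, 3184 and 3927 units at 46 h. The values overlapped, and the log2 change was 0.04 ± 0.09 (SE; adjusted p = 0.920 in limma), with a 95% interval of -0.16 to 0.24.

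Klf9, a Krüppel-like transcription factor induced directly by the receptor, had 7 probe sets, 6 above the filter. Probe set 1428289_at read 2591, 2610 and 2768 units at 54 h, against 3186, 3144 and 3256 units at 46 h. The groups did not overlap, with averages of 2656 ± 97.5 units at 54 h and 3195 ± 56.6 units at 46 h (SD, n = 3 each). The log2 change of -0.27 ± 0.06 (SE) missed the threshold (limma adjusted p = 0.166). Probe set 1422264_s_at was also separated, at 804, 753 and 838 units at 54 h, against 864, 873 and 1022 units at 46 h. The brightest probe sets, 1428288_at and 1456341_a_at, overlapped and had changes of -0.13 ± 0.07 and -0.11 ± 0.07 (SE). Probe set 1436763_a_at had -0.25 ± 0.15 (SE), which was -0.09 without 46h replicate C. Probe set 1436952_at was separated in the opposite direction, at 358, 329 and 340 units at 54 h, against 273, 266 and 322 units at 46 h (log2 change 0.24 ± 0.12 SE; adjusted p = 0.524 in limma). The Klf9 probe sets thus agreed in sign in 5 of 6 cases, with changes of -0.11 to -0.27, and the sixth was opposite. Below the filter, 1452723_at ran from 20.7 to 74.5 units.

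Mt1, a metal-binding protein of the cytosol, was read by 2 probe sets. Probe set 1422557_s_at read 5507, 5594 and 5370 units at 54 h, against 6979, 6196 and 6681 units at 46 h. All 54 h arrays lay below all 46 h arrays, with means of 5490 ± 113 units at 54 h and 6619 ± 395 units at 46 h (SD, n = 3 each). The change in log2(intensity + 16) was -0.27, which makes the value at 54 h 0.831 times that at 46 h, and the test was not passed (limma adjusted p = 0.117). The dim Mt1 probe set 1451612_at, under the filter, read 103, 52.9 and 101 units at 54 h, against 64.8, 83.0 and 78.7 units at 46 h, and so gave no second reading. Mt2, the neighbouring gene with the similar product, read 2330, 2068 and 2067 units at 54 h, against 2479, 1955 and 2468 units at 46 h. These overlapped, and the log2 change was -0.09 ± 0.10 (SE), and omitting 46h replicate 1 gave -0.03, omitting 46h replicate B -0.20. Whether Mt1 and Mt2 differed in their change was not tested, and the s suffix of the Mt1 probe set marks probes shared by more than 1 transcript. Metallothionein genes are strongly expressed in liver, and the summed intensity of 13 liver markers was 10274 to 15439 units at 54 h, against 4748 to 7411 units at 46 h. All 10 of these above the filter were higher at 54 h, with a median log2 change of 1.06, and none was at 0. Alb read 4286 ± 958 units at 54 h and 2177 ± 558 units at 46 h (SD, n = 3 each), the direction opposite to that of Mt1. The part of these markers in the metallothionein readings was not tested.

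Ddit4 encodes REDD1, an inhibitor of mTORC1 signalling that glucocorticoid, hypoxia and energy stress induce. It read 3276, 3486 and 3143 units at 54 h, against 2515, 2997 and 2861 units at 46 h. All 54 h arrays lay above all 46 h arrays, with a log2 change of 0.24 ± 0.08 (SE) and a 95% interval of 0.07 to 0.42, short of the threshold (limma adjusted p = 0.335). No other gene of the 10 had its brightest probe set separated as higher, as 6.48% of all probe sets were.

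Errfi1, a feedback inhibitor of the EGF receptor, had 2 probe sets. Probe set 1416129_at read 1550, 1501 and 1531 units at 54 h, against 1512, 1497 and 1588 units at 46 h, a log2 change of 0.00 with an interval of -0.17 to 0.16. The dimmer 1419816_s_at read 437, 469 and 446 units at 54 h, against 508, 486 and 521 units at 46 h. This probe set was separated, with a log2 change of -0.16 ± 0.10 (SE; adjusted p = 0.620 in limma), and the other was not.

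**Figure D3:**
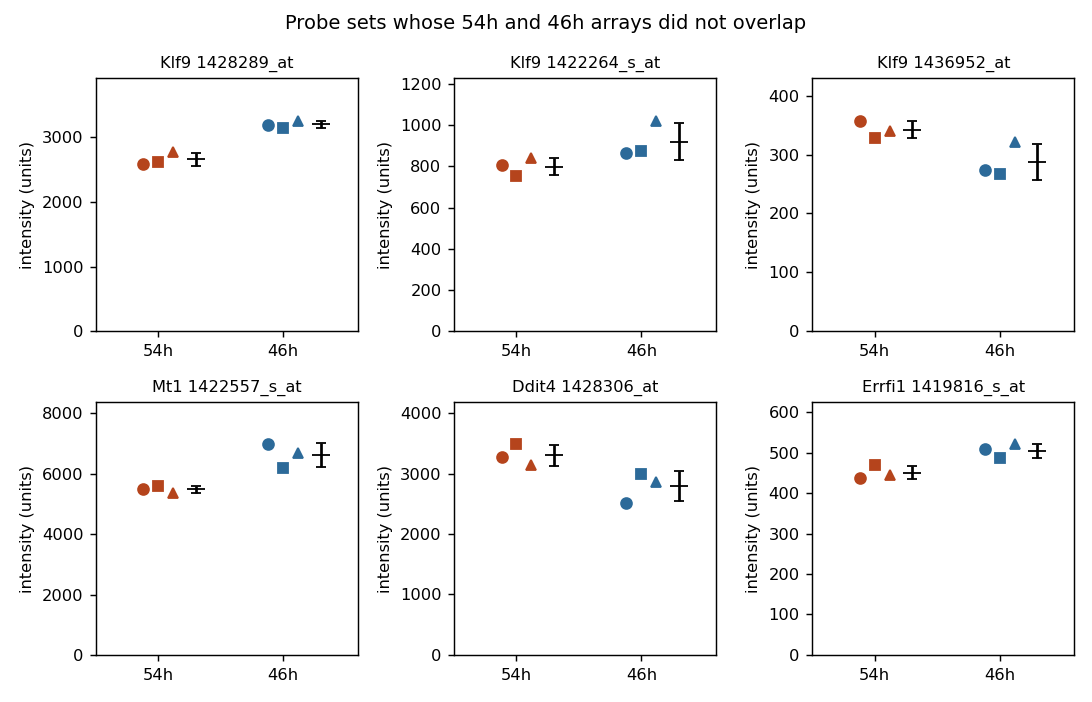
Intensity on each array for the 6 probe sets whose time points did not overlap, 54h left of 46h, with the mean and SD (n = 3 each) beside the points; axes start at 0. Ddit4 and Klf9 1436952_at were higher at 54h, and Klf9 1428289_at, Klf9 1422264_s_at, Mt1 and Errfi1 1419816_s_at were lower.

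**Figure D4:**
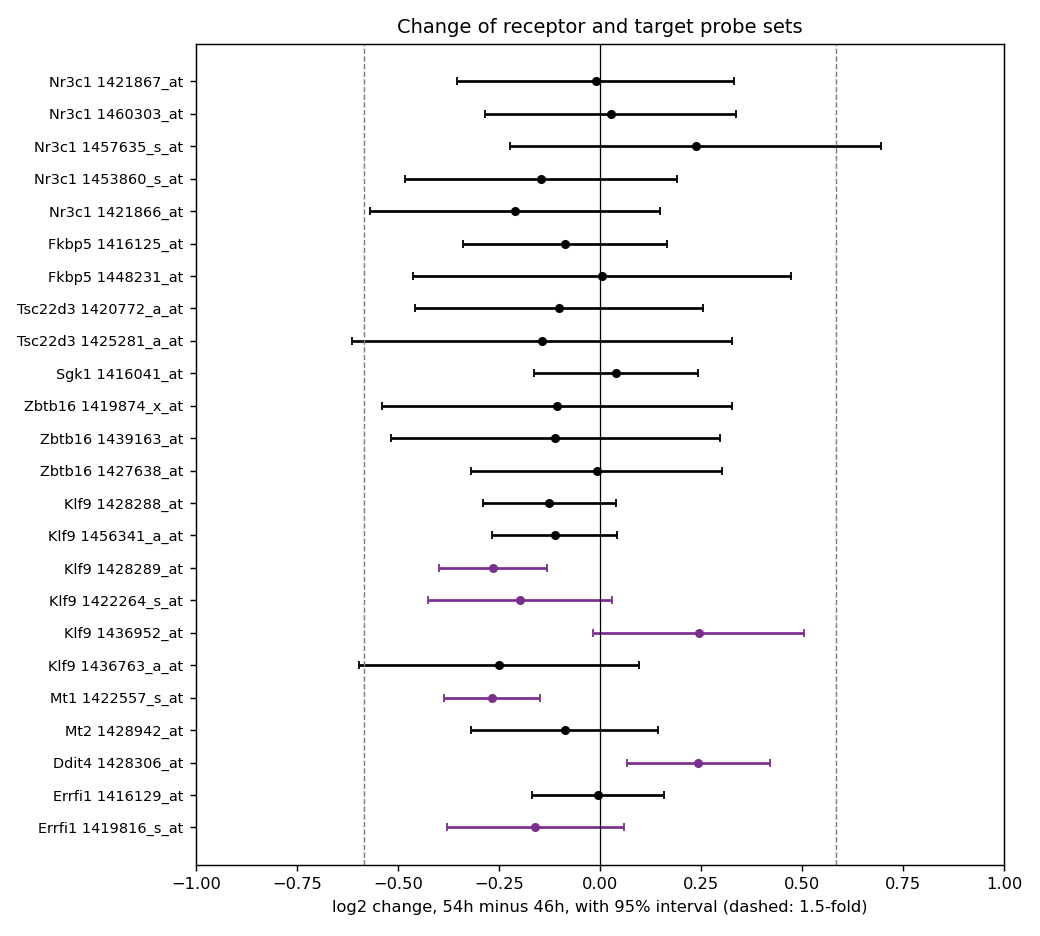
Log2 change of 54h minus 46h with its 95% interval from limma for the 24 probe sets above the filter; purple marks those whose time points did not overlap, and dashed lines stand at 1.5-fold. The intervals of Mt1 1422557_s_at, Klf9 1428289_at and Ddit4 1428306_at lie off 0 before adjustment.

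The partners that carry the receptor and supply its hormone showed no change past the test. Of 23 genes for chaperones, steroid enzymes, exporters and cofactors tested, each read from its brightest probe set, 0 passed limma, and under an unadjusted p of 0.05 none was higher and 1 was lower, or 4.35% of the list, against 10.1% of all probe sets. That gene was Abcb1b, a steroid-exporting transporter, with 9889, 7993 and 8856 units at 54 h, against 11726, 11432 and 11402 units at 46 h (log2 change -0.37 ± 0.07 SE; adjusted p = 0.0922 in limma). The coactivators Ncoa1 and Crebbp had changes of 0.23 and 0.18, and the chaperone Dnaja1 had -0.13. Nr3c2, the mineralocorticoid receptor, had 0.08. Hsd11b1, which regenerates active hormone, had 0.02, and Hsd11b2, which inactivates it, had 0.00. Fkbp4, the co-chaperone that counters Fkbp5, had -0.12 on its brightest probe set and 0.23 on another. The median over the 23 was 0.01, against -0.02 over all probe sets.

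Other genes described as induced by glucocorticoid gave no call either. Of 33 tested, 0 passed limma, while 6 higher and 2 lower genes had an unadjusted p under 0.05 (all probe sets, 4.34% higher and 5.75% lower), and the median log2 change was 0.10. The smallest p belonged to Dusp1, a phosphatase of MAP kinases, with 1809, 1972 and 1910 units at 54 h, against 1108, 1082 and 1371 units at 46 h (log2 change 0.68 ± 0.10 SE; adjusted p = 0.0539 in limma). The others with the smallest p were Rgs2 with 0.30, the transglutaminase Tgm2 with 0.29 and the insulin receptor substrate Irs2 with 0.51, each with all 54 h arrays above all 46 h arrays. Of the 33 genes, 8 were separated as higher and 1 as lower, against 6.48% and 9.05% of all probe sets. Several of these genes also answer to cAMP. The clock gene Per1, a direct receptor target, read 458, 833 and 701 units at 54 h, against 510, 512 and 603 units at 46 h. Its lowest value was on 54h replicate 1. Over the 33 genes that array was the lowest in 5 and the highest in 8 (Pdk4 and Anxa1 among them). Of all probe sets it was the lowest in 22.0% and the highest in 17.2%.

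Of 15 genes tested from a list of metallothionein relatives, zinc handling and metal response, 0 passed limma. The zinc importer Slc39a4 alone had an unadjusted p under 0.05 in limma and was higher (log2 change 0.44 ± 0.19 SE), 1 gene or 6.67% of the list, against 10.1% of all probe sets. Slc39a1 had 0.13, the haem oxygenase Hmox1 had -0.25 and Slc30a9 had -0.14. Mtf1, which activates metallothionein genes, had 0.01, and its exporter target Slc30a1 had -0.08 on its brightest probe set and 0.12 on another. Mt3, under the filter, read 109, 78.9 and 110 units at 54 h, against 25.6, 63.9 and 64.9 units at 46 h.

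Relatives and partners of the target proteins numbered 27 tested, of which 0 passed limma, while 2 higher and 2 lower genes had an unadjusted p under 0.05 (14.8% of the list, against 10.1% of all probe sets). Zbtb20, a zinc-finger repressor of the same class as Zbtb16, had a log2 change of 0.25 and Sesn2, like Ddit4 an inhibitor of mTORC1 signalling, had 0.35. Klf13, a close relative of Klf9, had -0.25, with 1573, 1557 and 1551 units at 54 h, against 2013, 1875 and 1684 units at 46 h. Tsc22d1 had -0.09 at 14344 to 14487 units at 54 h, against 15126 to 15551 units at 46 h. The highest value of any probe set was 17879 units.

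The arrays carried the marks of whole adrenal. Among steroidogenic genes, Star read 16876 ± 403 units on the 54 h arrays, against 17478 ± 402 units on the 46 h arrays, with the SD over 3 arrays each here and for the next genes. Cyp11b1 read 14621 ± 754 units at 54 h, against 15185 ± 416 units at 46 h. Of the medullary genes, Th read 8785 ± 446 units at 54 h, against 9097 ± 155 units at 46 h, and Pnmt 6681 ± 1441 units at 54 h, against 7229 ± 484 units at 46 h. The sum of 11 medulla markers was 70464 to 74226 units at 54 h, against 72645 to 76730 at 46 h, and that of 13 immune markers 32153 to 32771 at 54 h, against 35556 to 36664 at 46 h. Summed endothelial markers were 12892 to 13465 at 54 h, against 13628 to 15660 at 46 h, and erythroid markers 2020 to 2457 at 54 h, against 1497 to 1942 at 46 h. Members of these lists went both ways. The log2 change was above 0 in 2 of 11 medulla, 6 of 13 immune, 2 of 8 endothelial and 3 of 4 erythroid markers. It was above 0 in 0 of 10 cortex markers (median -0.055) and in 5 of 8 adipose markers. Over all probe sets tested, 55.6% were below 0. Kidney markers overlapped, at 1990 to 2364 at 54 h and 1974 to 2156 at 46 h. The part of these sums in the values above was not tested.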

How the data were processed

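Per the labels' protocols, total RNA was purified on RNeasy Micro columns and tagged with biotin. The authors deposited 1 table of linear intensity values, 1 per probe set and array, from an Affymetrix platform. Probe set summary, background correction and normalization are not given in the sources used here. Of 45001 probe sets, 64 controls, 1 with no value and 1 with a damaged value were left out. Of the 44935 kept, 34848 named 1 gene, 928 several and 9159 none in the platform annotation; RefSeq (GRCm38.p6) held 34644 of the first by gene ID and changed 0 symbols. It gave the promoter windows too; the files name no genome build.

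Intensities with no stated normalization were tested on a log scale, as log2(intensity + 16), so fold changes understate dim probe sets. The array medians differed by 0.0728 on the log2 scale, within a limit of 0.1, so they were not centred in the main setting. Probe sets with a mean above the 40th percentile (26961) entered limma 3.58.1 under R 4.3.3 (lmFit, eBayes with an intensity trend, two-sided, Benjamini-Hochberg over all). With 3 arrays against 3, an exact permutation test cannot go below p = 0.1, so single values were tested only within this fit, which was tested on simulated data. No detection call was used. Python 3.11.15, pandas 2.3.3 and matplotlib 3.10.9 made tables and plots.

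The genes and lists were chosen with earlier results of these data known. Named were every gene of the set and its probe sets, the 4 genes with the smallest p in each list of pathway genes, a few with known roles in hormone supply and metal response (Hsp90ab1 had no probe set naming it alone), and markers of cortex, medulla and liver. Alternatives were the filter, the offset, quantile or median scaling, the variance model, weighted arrays, a block for the replicate letter, and each array left out in turn.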

Additional observations from a re-analysis of the deposited data

How the results depend on the processing

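The count of passing receptor and target probe sets was 0 under every alternative except array weights, where it was 5: Ddit4 and Klf9 1436952_at higher, and Klf9 1428288_at, Klf9 1428289_at and Mt1 lower. The 31 calls over all probe sets became 48 with the filter at the 60th percentile, 47 with quantile normalization, 50 with centred medians (31 of them higher, against 16 of 31), 3 without a variance trend, 61 in a robust fit and 3466 under array weights. Leaving out 1 array gave 2 to 66. With the replicate block over arrays B and C only it was 159. Same-letter arrays did not deviate together (r of -0.0602, -0.405 and -0.487), while r ran from -0.0432 to 0.46 between arrays of unlike letters. The values thus show no pairing by letter, but cannot tell whether same-letter samples shared anything else. With the unlettered arrays as the third block the count of calls was 45. The cause of these shifts was not tested.

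The separated probe sets of Ddit4, Mt1, Klf9 and Errfi1 kept their direction in all alternatives run. With no overlap between their time points, leaving out, weighting or blocking arrays could not turn the sign. The filter, offset and variance model could not either, so only quantile and median scaling could have done so. Over the 10 genes, each by its brightest probe set, the median log2 change was -0.087 with all arrays, -0.17 to -0.0050 with single arrays left out, and 0.021 with arrays B and C only. Of the probe sets that overlapped, those of Mt2, Klf9 1428288_at, 1456341_a_at and 1436763_a_at, and Nr3c1 1453860_s_at and 1421866_at also kept their sign. Changes of the rest turned sign in some alternatives, among them Nr3c1 1457635_s_at (0.24 with all arrays) and Tsc22d3 1425281_a_at (-0.14), none of them called. With quantile and then median scaling, Nr3c1 1421867_at had 0.011 and 0.016, Zbtb16 1427638_at 0.0080 and 0.019, and Errfi1 1416129_at 0.0057 and 0.023. With array weights, Nr3c1 1460303_at had -0.012, Sgk1 -0.011 and Errfi1 1416129_at 0.012. In the block of arrays B and C, Nr3c1 1460303_at and 1457635_s_at had -0.16 and -0.037, Fkbp5 1416125_at 0.071, the Tsc22d3 probe sets 0.066 and 0.049, and those of Zbtb16 0.22, 0.22 and 0.081. With single arrays left out, the log2 change ran from -0.19 to 0.088 and -0.13 to 0.13 for Nr3c1 1421867_at and 1460303_at, -0.19 to 0.014 and -0.17 to 0.25 for Fkbp5 1416125_at and 1448231_at, and -0.26 to 0.010 and -0.34 to 0.054 for Tsc22d3 1420772_a_at and 1425281_a_at. It ran from -0.28 to 0.073, -0.23 to 0.11 and -0.13 to 0.071 for Zbtb16 1419874_x_at, 1439163_at and 1427638_at, from -0.066 to 0.10 for Sgk1 and from -0.021 to 0.021 for Errfi1 1416129_at. Without a turn of sign it ran from 0.0071 to 0.41, -0.28 to -0.016 and -0.34 to -0.11 for Nr3c1 1457635_s_at, 1453860_s_at and 1421866_at, from -0.20 to -0.030 for Mt2, and from -0.36 to -0.086, -0.24 to -0.12, -0.20 to -0.087 and -0.16 to -0.065 for Klf9 1436763_a_at, 1422264_s_at, 1428288_at and 1456341_a_at.

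Dim probe sets limit what can be seen: 6 of 30 lay under the filter, and the labels give no detection call.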
